A study of Arabidopsis thaliana with 6 samples.

Results

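Flavonoid and anthocyanin synthesis was examined in leaves of the Arabidopsis thaliana mutant pam48 through 8 listed loci of enzymes. A locus was kept where the platform annotation gave it a probe set with no other gene. This kept 2 of the 8, DFR (AT5G42800) and UF3GT (AT5G54060), among 13286 genes measured in this way on the whole array. Both belong to the late steps, which lead to anthocyanins. The early loci of chalcone synthase (AT5G13930), chalcone isomerase (AT3G55120), flavanone hydroxylase (AT3G51240), flavonoid hydroxylase (AT5G07990) and flavonol synthase (AT5G08640), and the late locus LDOX (AT4G22880), had no such probe set and were not analysed here. Early and late steps could therefore not be set against each other. The annotation named no gene for 8730 of the 22746 probe sets, so the array may hold probe sets of these loci that were not found. The platform symbol CHI is that of AT2G43570, a putative chitinase in the gene table, and was not taken for chalcone isomerase.

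The groups were pam48, also labelled mterf6-1, and the wild type, both in the ecotype Col-0, with 3 Affymetrix arrays each and the same replicate numbers. Rosettes with 8 leaves, raised in a greenhouse under 16 h of light (close to 120 µmol photons m-2 s-1 at the leaf), gave age-matched leaves for RNA. The labels call the replicates biological, name 1 mutant allele and do not say what the mutation is. Values are log2 summaries of a probe set, so a difference of 1 is a doubling of signal; differences are pam48 minus wild type.

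Flavonoids are made from phenylalanine through the phenylpropanoid pathway. Early enzymes build the flavanone and dihydroflavonol skeletons that are shared by flavonols and anthocyanins. Late enzymes turn dihydroflavonols into anthocyanidins, which are glycosylated and acylated to give anthocyanins. In Arabidopsis leaves the late genes are known to be switched on by complexes of MYB, bHLH and WD40 proteins. Anthocyanins are known as red pigments of stressed or strongly lit leaves, and flavonols as ultraviolet screens.

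Neither late gene was called as changed between the genotypes, and each was high on 1 array, pam48 replicate 2. DFR, dihydroflavonol reductase, makes the leucoanthocyanidins from which anthocyanins derive. It had values of 4.43, 6.91 and 3.82 in pam48 replicates 1, 2 and 3, and of 4.32, 4.04 and 4.04 in wild type replicates 1, 2 and 3. Replicate 2 of pam48 was far above every other array, replicate 3 of pam48 was the lowest of all, and the genotypes overlapped. The 2.79 by which pam48 replicate 2 exceeded the mean of the other pam48 arrays is 6.90-fold on the linear scale. The 3 wild-type arrays lay within 0.29 of each other, and the 3 pam48 arrays within 3.09. All DFR values other than that of pam48 replicate 2 lay below 5.48, the 40th percentile of probe set means. They may hold mostly background, which limits what their order and spread can show.

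UF3GT is listed in the gene table also as UGT79B1, an enzyme known to add xylose to the sugar of anthocyanins. Its values were 5.64, 6.96 and 5.14 in pam48 replicates 1, 2 and 3, and 5.77, 5.64 and 5.24 in wild type replicates 1, 2 and 3. The order repeated that of DFR at its ends, with pam48 replicate 2 highest and pam48 replicate 3 lowest. Replicate 2 of pam48 was 1.20 above the next highest array, and the other pam48 arrays lay below the highest wild-type array.

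**Figure D1:**
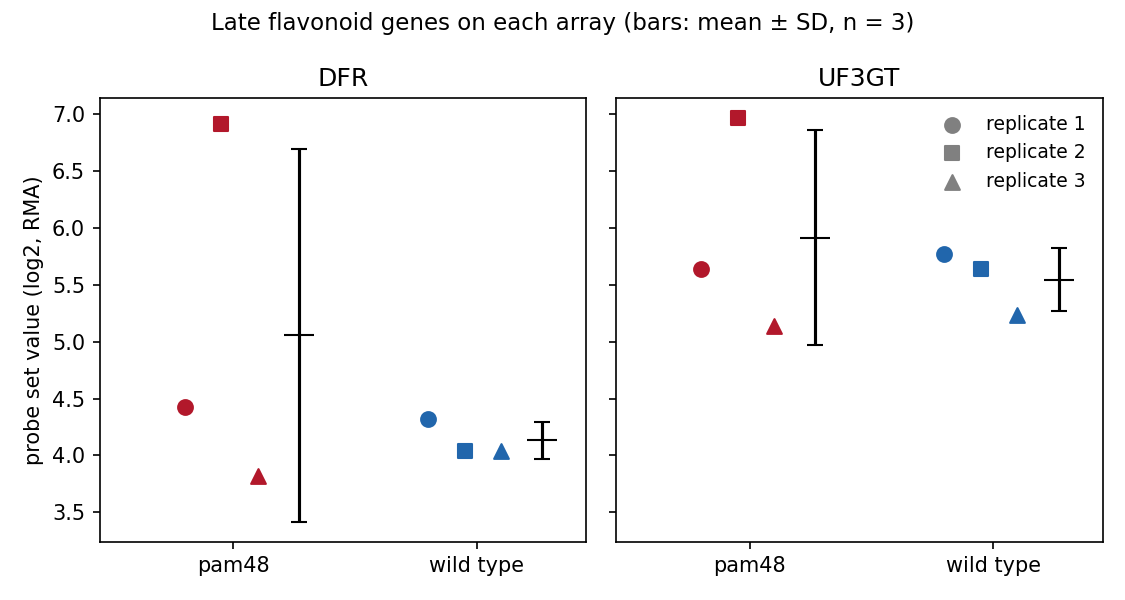
Values of DFR and UF3GT (log2, vertical axis) on the 3 pam48 arrays (red) and the 3 wild-type arrays (blue), with the marker shape giving the replicate number and the bars the mean and SD of each genotype. In both panels pam48 replicate 2 (6.91 and 6.96) stands alone at the top, and the other pam48 arrays lie between 3.82 and 4.43 for DFR and between 5.14 and 5.64 for UF3GT.

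DFR averaged 5.05 ± 1.64 in pam48 and 4.13 ± 0.16 in wild type (SD, n = 3 each). The difference was 0.92 ± 0.75 (SE), with a 95% interval of −0.87 to 2.71 and a limma adjusted p of 0.646. UF3GT averaged 5.91 ± 0.95 in pam48 and 5.55 ± 0.28 in wild type (SD, n = 3 each), a difference of 0.37 ± 0.45 (SE), with a 95% interval of −0.72 to 1.45 and a limma adjusted p of 0.766. The intervals hold a fall as well as a rise, so these arrays do not settle a direction for either gene. Limma called 0 of the 2 genes at an adjusted p under 0.05, against 0.778% of all 22746 probe sets. At an unadjusted p under 0.05 the count was also 0, against 13.5% of the probe sets.

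The difference rested on pam48 replicate 2. Without that array DFR differed by −0.0085 ± 0.22 (SE, limma adjusted p = 0.992) and UF3GT by −0.16 ± 0.23 (SE, limma adjusted p = 0.836). Between arrays of the same replicate number, pam48 minus wild type was 0.11, 2.88 and −0.22 for DFR in pairs 1, 2 and 3. For UF3GT it was −0.13, 1.33 and −0.10. The late mean, the average of both genes on an array, was 5.03, 6.94 and 4.48 in pam48 replicates 1, 2 and 3, and 5.04, 4.84 and 4.64 in wild type replicates 1, 2 and 3. A difference in the number of cells with a transcript and a difference in transcript per cell cannot be told apart in such leaf RNA.

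Gaps of this size were rare on pam48 replicate 2. DFR had the fifth largest and UF3GT the 48th largest excess over all other arrays among 22746 probe sets there. An excess of at least 1 was found in 66 probe sets (0.290%) on that array, in 535 on pam48 replicate 1 and in 2 to 14 on each of the other 4 arrays. This count was chosen after the values had been seen. On the actin control, a sign of RNA integrity, the 3′ probe set exceeded the 5′ one by 2.75 on this array and by 1.60 to 2.01 on the others. On the GAPDH control the excess was 0.82 on this array and 0.12 to 0.47 on the others. The part of RNA integrity in the result was not tested.

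The other genes of the pathway were taken from a list of 65 loci, of which 10 had a probe set of their own. None of the 8 listed phenylpropanoid entry loci was among them. Limma called 0 of the 10, higher or lower, against 0.778% of all probe sets. In 1 of the 10 the unadjusted limma p was under 0.05, against 13.5% of all probe sets. Differences were positive in 9 of the 10, where 44.7% of all probe sets had a positive one, and their median was 0.18. Some were close to none, such as 0.0078 for BAN and 0.065 for UGT78D3. Without pam48 replicate 2 the differences of CHIL and AT4G14090 turned negative (−0.11 and −0.17), and the other positive ones kept their sign. Of the 10, 6 were highest on pam48 replicate 2, where 20.1% of all probe sets had their highest value.

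Outside the 2 late genes, the largest excesses of pam48 replicate 2 over all other arrays in the pathway were found in AT5MAT, AT4G14090 and a probe set shared by AT1G03495 and AT1G03940. AT5MAT, a malonyltransferase of anthocyanins, had 5.12, 5.72 and 4.48 in pam48 replicates 1, 2 and 3, and 4.82, 4.84 and 4.59 in wild type replicates 1, 2 and 3. Its highest array was again pam48 replicate 2 and its lowest pam48 replicate 3, and the difference was 0.36 ± 0.30 (SE, limma adjusted p = 0.658). AT4G14090, listed among the sugar and acyl transferases and given by its locus in the platform annotation and the gene table, had 5.19, 6.81 and 5.13 in pam48 replicates 1, 2 and 3, and 5.48, 5.16 and 5.35 in wild type replicates 1, 2 and 3. Only pam48 replicate 2 stood out, by 1.33 over the next array. The difference of AT4G14090 was 0.38 ± 0.45 (SE, limma adjusted p = 0.757), and −0.17 ± 0.14 without pam48 replicate 2 (limma adjusted p = 0.685). The shared probe set of AT1G03495 and AT1G03940, both in the same list, was not counted among the 10 because it has 2 genes. It read 4.38, 6.06 and 3.52 in pam48 replicates 1, 2 and 3, and 4.09, 3.95 and 4.03 in wild type replicates 1, 2 and 3, and which of the 2 loci it measures cannot be told apart. Its difference was 0.63 ± 0.59 (SE, limma adjusted p = 0.693), and −0.07 ± 0.26 without pam48 replicate 2.

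**Figure D2:**
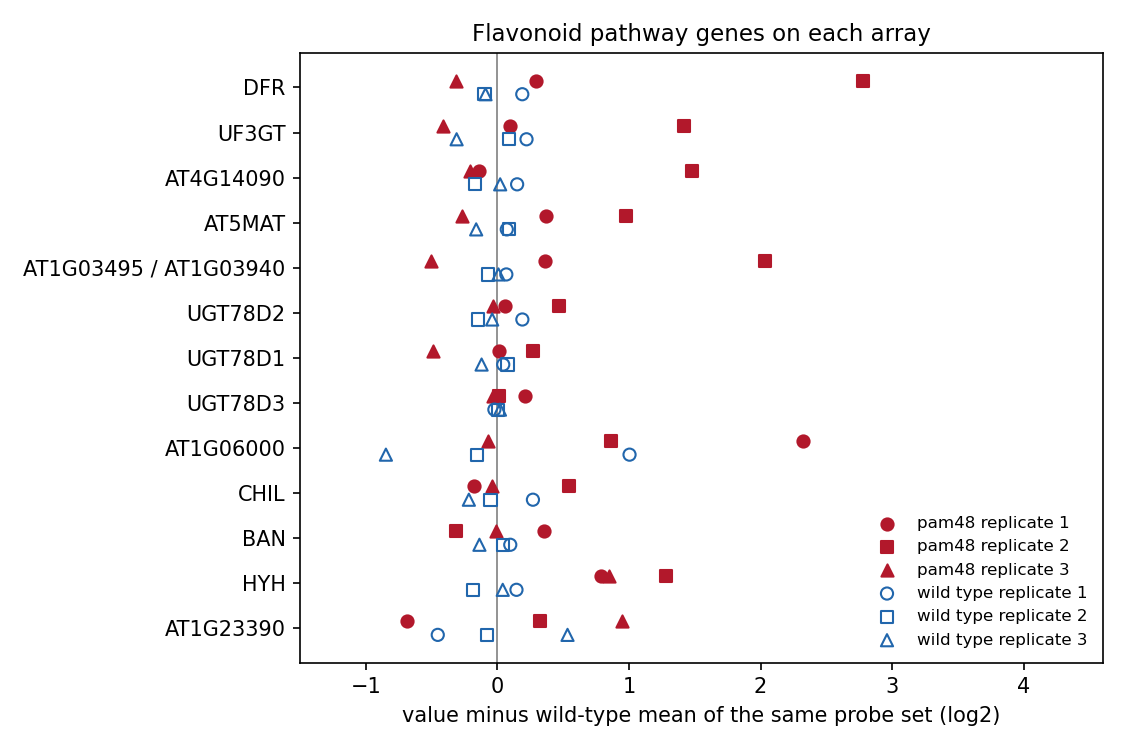
The 12 pathway genes with a probe set of their own and 1 shared probe set on each array, as the value minus the wild-type mean of the same probe set (log2, horizontal axis), with pam48 in filled red and wild type in open blue markers and the shape giving the replicate number. DFR, UF3GT, AT4G14090, AT5MAT and the shared probe set of AT1G03495 and AT1G03940 have pam48 replicate 2 far to the right, while HYH has all 3 pam48 arrays to the right of wild type.

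In 3 named glycosyltransferases that act on flavonols or on both branches, pam48 replicate 2 was at most 0.28 above the next array. UGT78D2, which adds glucose to flavonols and anthocyanidins, had 7.72, 8.14 and 7.63 in pam48 replicates 1, 2 and 3, and 7.85, 7.51 and 7.62 in wild type replicates 1, 2 and 3. It was highest on pam48 replicate 2, and the difference was 0.16 ± 0.17 (SE, limma adjusted p = 0.722). UGT78D1, a rhamnosyltransferase of flavonols, had 8.80, 9.05 and 8.29 in pam48 replicates 1, 2 and 3, and 8.83, 8.86 and 8.66 in wild type replicates 1, 2 and 3. Its difference was −0.07 ± 0.20 (SE, limma adjusted p = 0.910). UGT78D3, an arabinosyltransferase of flavonols, stayed between 3.94 and 4.18 in pam48 and between 3.95 and 3.99 in wild type. That the anthocyanin genes and the flavonol genes differ in their response was not tested.

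AT1G06000, listed among the sugar and acyl transferases and likewise given by its locus only, had the largest mean difference of the 10. It read 9.82, 8.36 and 7.42 in pam48 replicates 1, 2 and 3, and 8.50, 7.34 and 6.65 in wild type replicates 1, 2 and 3. The genotypes overlapped, but each pam48 array was above the wild-type array of its own number, by 1.32, 1.02 and 0.78 in pairs 1, 2 and 3. The difference was 1.04 ± 0.69 (SE, limma adjusted p = 0.572). With the replicate number as a block it was 1.04 ± 0.15 (SE) and was called (limma adjusted p = 0.0420). This fit called 1.81% of all probe sets and takes the numbers as pairs, which was not established. With array weights the difference was 0.53 (limma adjusted p = 0.719), and without pam48 replicate 1 it was 0.40 (limma adjusted p = 0.749). The high array of DFR, pam48 replicate 2, was the third highest for AT1G06000.

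CHIL is a protein related to chalcone isomerase that is known to favour chalcone formation. Among the genes given a probe set of their own, CHIL is the nearest to the early steps. It had 6.11, 6.83 and 6.24 in pam48 replicates 1, 2 and 3, and 6.56, 6.23 and 6.07 in wild type replicates 1, 2 and 3, a difference of 0.11 ± 0.22 (SE, limma adjusted p = 0.871). BAN, anthocyanidin reductase, leads to the proanthocyanidins of the seed coat, and lay between 3.60 and 4.27 in pam48 and between 3.78 and 4.02 in wild type. Unlike DFR and UF3GT, BAN had its lowest value on pam48 replicate 2. All values of BAN lay below 5.48, the 40th percentile of probe set means, so their order may be mostly background. A probe set shared by AT5G66220, a listed locus, and AT5G66230 read 4.94, 4.50 and 4.79 in pam48 replicates 1, 2 and 3, and 5.41, 4.94 and 4.95 in wild type replicates 1, 2 and 3, and was not called (−0.36 ± 0.18, SE, limma adjusted p = 0.447).

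Of 17 listed activators and 15 listed repressors, 1 each had a probe set of its own. HYH, a bZIP factor related to HY5 that acts in light responses, had 4.65, 5.14 and 4.71 in pam48 replicates 1, 2 and 3, and 4.003, 3.67 and 3.90 in wild type replicates 1, 2 and 3. All pam48 arrays were above all wild-type arrays. HYH was the 1 of the 10 pathway genes in which the genotypes did not overlap, against 20.5% of all probe sets. The difference of HYH was 0.97 ± 0.17 (SE), 1.96-fold, with a 95% interval of 0.57 to 1.38. It missed the threshold (limma adjusted p = 0.0727), and it passed with array weights (limma adjusted p = 0.0364). Over all fits that held HYH, which the filter on dim probe sets removed, its adjusted p lay between 0.0364 and 0.271. The difference was 0.82 ± 0.14 (SE, limma adjusted p = 0.136) without pam48 replicate 2, the array that was high in DFR. The sign of the HYH difference did not rest on that array, which was still the highest for HYH, by 0.43 over the next. AT1G23390, listed among the repressors and also given by its locus only, had 9.91, 10.92 and 11.54 in pam48 replicates 1, 2 and 3, and 10.14, 10.51 and 11.13 in wild type replicates 1, 2 and 3. Its difference was 0.19 ± 0.44 (SE, limma adjusted p = 0.883), and in both genotypes replicate 1 was the lowest and replicate 3 the highest.

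**Figure D3:**
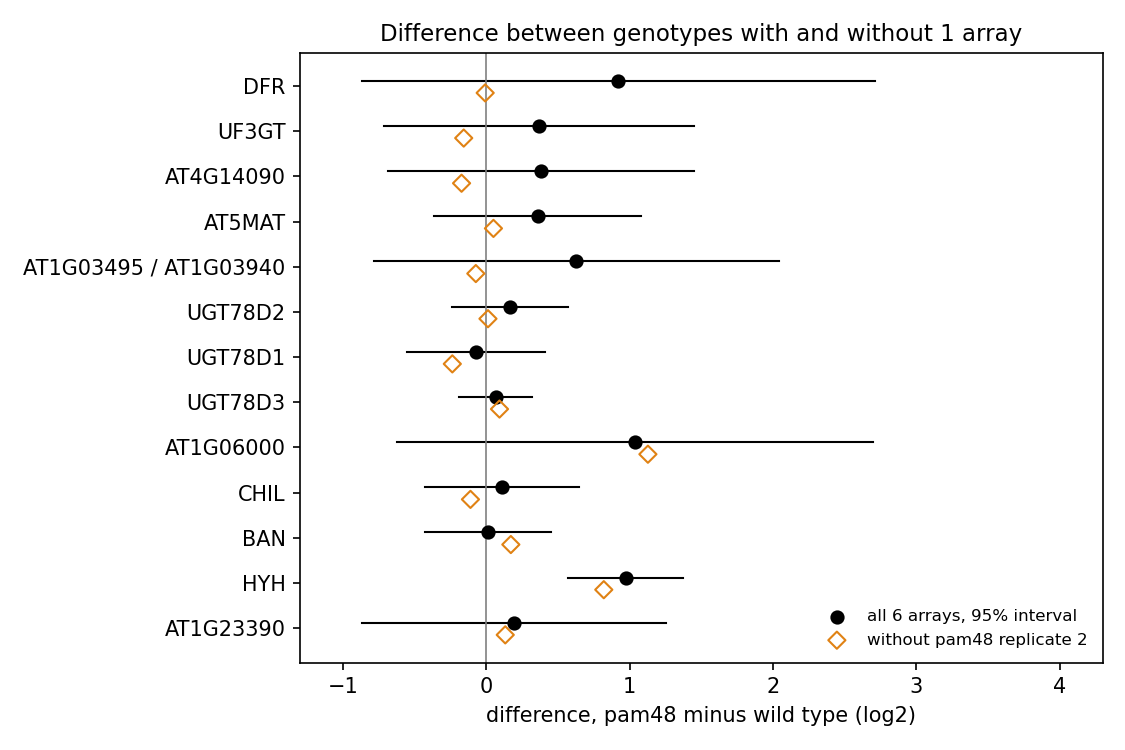
Difference between pam48 and wild type (log2, horizontal axis) for the same genes and shared probe set, with all 6 arrays and the 95% interval (black) and without pam48 replicate 2 (open orange diamonds). The interval of HYH alone lies wholly above 0 (0.57 to 1.38), and the differences of DFR and UF3GT move to −0.0085 and −0.16 without that array.

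The genes most like the late mean over the 6 arrays were sought among 13284 other genes by Pearson's correlation, as a description. The 6 nearest were AT4G32160, AT3G44510, AT2G36470, AT4G26660, AUR2 (an Aurora kinase of dividing cells) and AT4G15840, with r between 0.985 and 0.993. All 6 were highest on pam48 replicate 2, and with that array left out r lay between 0.722 and 0.896 over 5 arrays. These 5 arrays also served to pick the 6 genes, and their r was not compared with that of other genes. The measure takes no account of size, as the excess of pam48 replicate 2 over the next array was 0.23 for AT4G32160 and 0.97 for AUR2. Of the pathway genes AT4G14090 came 22nd (r = 0.970), AT5MAT 39th (r = 0.950) and UGT78D2 112th (r = 0.906). The others lay further down, with CHIL at r = 0.843, UGT78D1 at 0.732, HYH at 0.632, AT1G06000 at 0.330, UGT78D3 at 0.012, AT1G23390 at −0.068 and BAN at −0.55. Since 1 array sets most of the variation of the late mean, these ranks describe mainly that array.

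The tissue label was checked with 5 measured leaf markers, which read between 12.14 and 14.37 on all arrays. Their summed level, taken on the linear scale and given as log2, was 15.76 to 16.10 in pam48 and 16.19 to 16.22 in wild type. None of the 5 was called (limma adjusted p of 0.161 to 0.801). The genotypes overlapped in RCA and LHCB4.1 and not in SBPASE, LHCB4.2 and PSBY. PYK10, the 1 measured of 3 listed root markers, had 5.56, 9.74 and 7.29 in pam48 replicates 1, 2 and 3, and 8.51, 5.21 and 5.19 in wild type replicates 1, 2 and 3. It was thus highest on the array that was high in DFR, but it was next highest on wild type replicate 1, where DFR read 4.32, and its part in the result was not tested. The shoot apex marker CLV3 read 3.20 to 3.34 in pam48 and 3.45 to 3.70 in wild type. The guard cell marker FMA read 5.47 to 5.55 in pam48 and 5.70 to 6.08 in wild type. Neither was called (limma adjusted p = 0.301 for CLV3 and 0.237 for FMA), and 20.5% of all probe sets did not overlap. None of the listed seed and flower markers had a probe set of its own.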

How the data were processed

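RNA of 3 pam48 and 3 wild-type leaf samples was measured on Affymetrix arrays. The deposited log2 values, 1 per probe set and array, come from RMA as run by the authors, according to the submitters' processing notes. Neither its version nor a genome build is given in the sources used here, and the values themselves showed the log2 scale. Of 22810 rows, 64 control probe sets were left out. Array medians lay between 6.38 and 6.55, correlations between arrays between 0.952 and 0.992, so none duplicated another. Signal over background was not available from these values, and the number of arrays limits the precision. Low values may hold mostly background, which lessens differences.

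Names came from the gene IDs of GEO's platform annotation, read through the TAIR10.1 gene table, used for names only; 13436 of 13513 probe sets with 1 gene were matched, 503 had several genes and 8730 none. The test between genotypes was that of limma 3.58.1 under R 4.3.3 (lmFit, eBayes, two-sided, Benjamini-Hochberg over 22746 probe sets), tested first on simulated data. Deviations from the genotype means correlated between same-numbered arrays with 0.53, 0.20 and 0.54, all above 0.1. The numbers were therefore read as pairs from these values and not from the labels. Other matchings of the arrays were not compared, so the pairing is not established. The main fit left the pairs out, and the fit with the block was an alternative. The others were quantile normalization, median centring, leaving out the dimmest 40% of probe sets, array weights, trend and robust settings, omission of each array, an adjusted p under 0.01 and probe sets of several genes. Named were all members with a probe set, in lists of at most 8 measured genes all of these, and the 6 genes most like the late mean. The members and lists were chosen with earlier results of these data known. The gene of the mutant's second name was not analysed here.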

Additional observations from a re-analysis of the deposited data

How the results depend on the processing

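The differences of DFR and UF3GT kept their sign and stayed uncalled under quantile normalization, median centring, trend and robust settings, array weights and the replicate block. The filter on dim probe sets removed DFR, HYH, AT5MAT, UGT78D3 and BAN, so it gave no value for these and no late mean. When 1 array was left out, the difference lay between −0.0085 and 1.54 for DFR, between −0.16 and 0.76 for UF3GT and between −0.083 and 1.15 for their mean, negative in each case only without pam48 replicate 2. The count of members called was 0 in every fit run. Of the other pathway genes 1 was called with array weights (HYH) and 1 with the replicate block (AT1G06000), and the block changed no other call among the genes described. The difference of BAN was −0.046 with median centring and −0.065 with array weights. When 1 array was left out, differences spanned 0 for CHIL (−0.11 to 0.25), UGT78D1 (−0.24 to 0.14), UGT78D3 (−0.0094 to 0.11), AT4G14090 (−0.17 to 0.67), BAN (−0.16 to 0.17) and AT1G23390 (−0.18 to 0.64). The 177 called probe sets of the whole array became 351 with array weights, 412 with the replicate block, 8 at an adjusted p under 0.01, and 1 to 291 in the fits without 1 array. Early steps had no named probe set, and so no value, under any setting. The cause of these shifts was not tested, and the limits set by signal over background could not be examined.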

Other observations

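Other named genes stood out on pam48 replicate 2 together with DFR. They were picked after their values had been seen, from the 33 probe sets with 1 gene that exceeded all other arrays there by at least 1. Another 31 probe sets with such an excess had no listed gene. JAL22, a jacalin-related lectin gene, had 4.67, 8.15 and 5.71 in pam48 replicates 1, 2 and 3, and 5.64, 4.66 and 4.59 in wild type replicates 1, 2 and 3. JAL33, another lectin gene of that family, had 4.85, 7.48 and 5.21 in pam48 replicates 1, 2 and 3, and 6.15, 4.82 and 5.14 in wild type replicates 1, 2 and 3. NAI2, which is needed for the endoplasmic reticulum bodies that hold PYK10, had 5.85, 7.65 and 6.03 in pam48 replicates 1, 2 and 3, and 6.34, 6.16 and 6.05 in wild type replicates 1, 2 and 3. These genes had wild type replicate 1 as their highest wild-type array, as PYK10 did. Of the 33 probe sets this held for 19, while 11 had wild type replicate 2 and 3 had wild type replicate 3 as the highest. The 33 include DFR, PYK10, JAL22, JAL33 and NAI2. The share over all probe sets was not counted, so a link between these arrays was not tested. Among other genes with a symbol there, petL, ndhE and HIS1-3 had wild type replicate 2 as their highest wild-type array. DI21 and 3xHMG-box2 had wild type replicate 1. The wild-type values of DFR, 4.04 to 4.32, were also highest on wild type replicate 1, but within 0.29 of each other.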
